A study of Mus musculus with 6 samples.

Results

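The genes described here were 7 chemokines of macrophages and monocytes, Ccl2, Ccl6, Ccl9, Ccl24, Cxcl16, Cxcl1 and Pf4, chosen by symbol out of 5301 genes held by the deposited single-cell RNA-seq matrices. All 7 were present in each of the 3 matrices, which held 4486 genes for tumour-free adjacent tissue (AT), 2669 for micrometastasis and 2643 for macrometastasis. The data were droplet libraries of CD45+ cells sorted from small pieces of liver of Balb/c mice after intracardiac injection of 4T07 cells, a mouse mammary tumour line written 4TO7 in the labels. The injected cells were either control (Ctrl) or carried an shRNA knockdown of Tim3 (Tim3-KD), the gene Havcr2, and the mice themselves were otherwise untreated. The first 2 sites were sampled 3 days after injection and macrometastasis 12 days after it, each from Ctrl and from Tim3-KD mice, which gave 6 libraries of 1803, 542, 5106, 5142, 4913 and 5502 cells. The knockdown was in the tumour cells only, which the CD45 sort removes, so no gene of these libraries checks it. The age of the mice was not given in the sources used here.

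Every library pooled mice and stood alone in its group. There was therefore no spread between replicates, and values were compared without a test or a p-value. Values are unique molecular identifiers (UMIs) on the counts-per-million scale (CPM), relative to all UMIs of the same cells. The intervals are exact 95% intervals that cover counting error only, and a difference outside them compares libraries, not conditions. Median UMIs per cell ran from 6300.0 to 10248, and 59 of 22948 distinct barcodes occurred in more than 1 library. The AT Tim3-KD library stood apart in its cells: mature neutrophil-like cells were 3.51% of it against 38.3% in AT Ctrl, and B-like cells were 36.2% against 14.4%. Cell classes were rebuilt here by clustering without chemokine or chemokine receptor genes and are called "like" a type, and they may differ from the classes of the study.

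Chemokines are small secreted proteins that bind G protein-coupled receptors and draw leukocytes along a gradient. Ccl2 acts through Ccr2 and brings monocytes out of bone marrow and blood, Ccl6 and Ccl9 are rodent chemokines that act through Ccr1, and Ccl24, or eotaxin-2, acts through Ccr3 on eosinophils. Cxcl16 is made as a membrane-anchored protein and binds Cxcr6 on T and NKT cells, Cxcl1 draws neutrophils through Cxcr2, and Pf4, platelet factor 4, is stored in platelet granules and is also made by some macrophages. The liver holds a resident macrophage, the Kupffer cell, which lines the sinusoids, while monocyte-derived macrophages gather at lesions.

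The genes lie on 2 chromosomes of the mouse genome (GRCm38, GENCODE M21 annotation). Ccl2 (chr11:82035571-82037453, plus strand), Ccl9 (chr11:83572919-83578636, minus strand), Ccl6 (chr11:83587882-83593087, minus strand) and Cxcl16 (chr11:70453983-70459984, minus strand) are on chromosome 11. Pf4 (chr5:90772435-90773383, plus strand), Cxcl1 (chr5:90891241-90893115, plus strand) and Ccl24 (chr5:135569937-135573049, minus strand) are on chromosome 5. Ccl6 and Ccl9 are neighbours on the same strand. Their upstream sequences are shown with that of Cxcl1 because Ccl6 and Ccl9 differed along the neutrophil lineage and Cxcl1 differed between the Kupffer-like clusters. Each runs over the 250 bases before the RefSeq start (GRCm38.p6), 5′ to 3′ on the strand of the gene, at chr11:83593088-83593337 for Ccl6, chr11:83578637-83578886 for Ccl9 and chr5:90890995-90891244 for Cxcl1, and capitals mark matches to the NF-kB motif and to the TATA box letters TATAAA.
Ccl6: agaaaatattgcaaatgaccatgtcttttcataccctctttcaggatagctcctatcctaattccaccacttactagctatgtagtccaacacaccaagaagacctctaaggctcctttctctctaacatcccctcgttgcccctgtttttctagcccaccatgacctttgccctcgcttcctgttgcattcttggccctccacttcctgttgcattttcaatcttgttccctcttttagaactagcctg
Ccl9: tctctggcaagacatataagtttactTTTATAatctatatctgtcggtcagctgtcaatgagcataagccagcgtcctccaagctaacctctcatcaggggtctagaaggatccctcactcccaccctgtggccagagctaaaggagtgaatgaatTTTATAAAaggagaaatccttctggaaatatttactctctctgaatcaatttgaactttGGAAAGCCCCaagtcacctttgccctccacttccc
Cxcl1: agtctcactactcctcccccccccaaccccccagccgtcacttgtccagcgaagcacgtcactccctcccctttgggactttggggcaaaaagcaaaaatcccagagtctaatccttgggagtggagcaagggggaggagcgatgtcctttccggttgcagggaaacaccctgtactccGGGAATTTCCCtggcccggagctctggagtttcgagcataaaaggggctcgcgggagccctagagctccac
Both strands were searched. The NF-kB motif was found in 7.25% of 32851 mouse promoters of this length and TATAAA in 12.4%. Cxcl1 had the NF-kB match GGGAATTTCC starting 71 bases before the start, overlapped by GGAATTTCCC on the other strand. Ccl9 had the match GGAAAGCCCC on the other strand 35 bases before its start, a match to the AP-1 letters TGANTCA, which 6.75% of promoters hold, 53 bases before it, and TATAAA at 92 bases, overlapped on the other strand at 94, with a further match at 224. Ccl6 had none of the 8 motifs searched, the others being that of the GATA factors, spelled AGATAA (9.99%), PU.1 (GAGGAAGT, 2.44%), the CCAAT box (33.9%), STAT (TTCNNNGAA, 7.02%) and C/EBP (TTGCNNAAT, 2.11%). In an alignment of the windows, Ccl6 and Ccl9 shared 47.4% of positions, inside the range of the other pairs among Ccl6, Ccl9, Cxcl1 and Pf4, 45.5% to 50.2%. Pf4, whose window is not shown, had a PU.1 match, ACTTCCTC on the other strand, 10 bases before its start, and matches to the CCAAT box and C/EBP further out. Matches of letters are a description and show no binding.

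Most of the chemokine UMIs came from few cell classes. Kupffer-like cells, marked by Clec4f, Cd5l, Vsig4 and Fcna, held 66.7% of the Ccl24 UMIs and 51.9% of the Cxcl16 UMIs of all libraries, and lesion macrophage-like cells, marked by Trem2 and Spp1, a further 25.2% and 23.8%. Monocyte-like cells, marked by Ms4a4c, Vcan, F13a1 and Fn1, held 49.6% of Ccl9. Of the 7 genes, 5 had their highest median level over libraries in Kupffer-like or lesion macrophage-like cells, and Ccl6 and Ccl9 had theirs in basophil or mast-like cells. Without cells of a doublet score over 0.15, Ccl6 was highest in Kupffer-like and Ccl9 in lesion macrophage-like cells. The basophil or mast-like class was ranked from 1 library of 52 cells, near the minimum of 50. This change therefore does not show that its levels came from doublets. With coarser or finer clusters (resolutions 0.5 and 2 in place of 1) only Ccl24 was highest in a macrophage class. Ccl2, Cxcl16, Cxcl1 and Pf4 were then highest in a cluster named from hepatocyte markers. At resolution 0.5 that cluster of 330 cells also had Ctsl, Lgmn, C3ar1 and Trem2 among its leading genes, so it is not read as hepatocytes. In B-like cells, which should lack these genes, the highest level of any of the 7 in a library was 13.6 CPM, for Ccl9 in AT Ctrl.

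**Figure D1:**
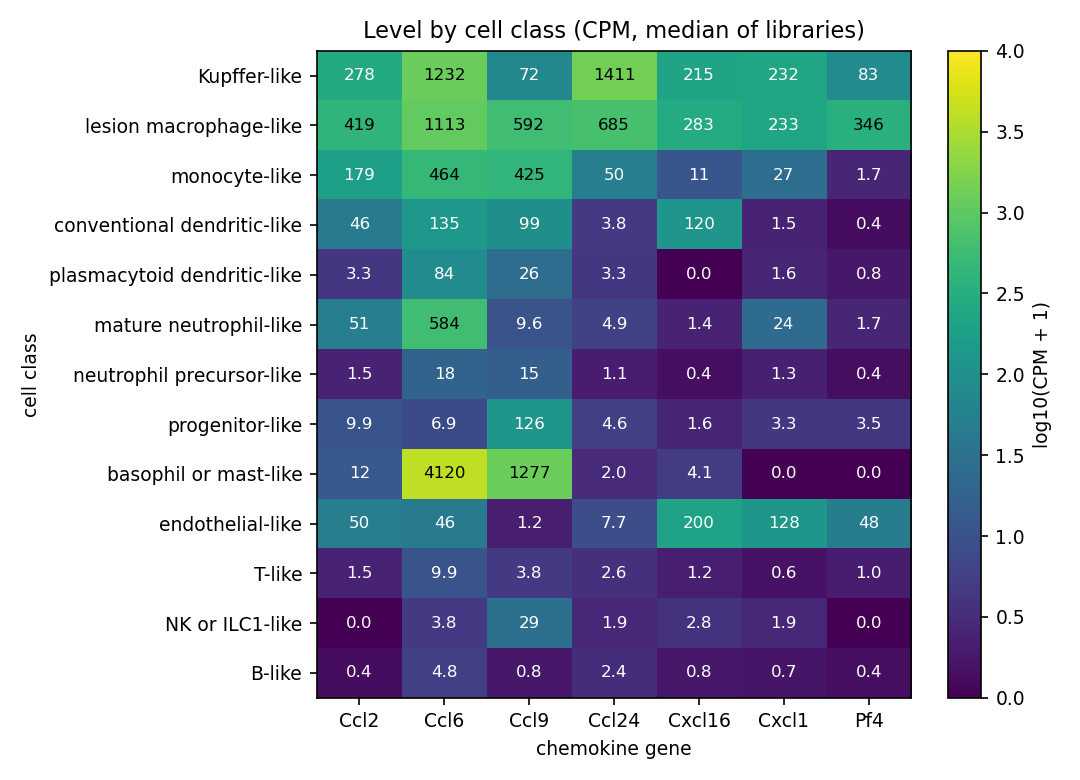
Level of each chemokine gene (columns) in each cell class (rows), as the median CPM over the libraries with at least 50 cells of the class, printed in the cell and coloured by log10(CPM + 1). Kupffer-like and lesion macrophage-like rows are high for all 7 genes except Ccl9 in Kupffer-like cells, and the highest value of the plot is Ccl6 in basophil or mast-like cells, 4119.6 CPM in 1 library.

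Ccl24 was the gene most restricted to macrophages. In Kupffer-like cells it measured 1047 CPM in AT Tim3-KD, 2010.4 in micrometastasis Ctrl, 1859.7 in micrometastasis Tim3-KD, 1411 in macrometastasis Ctrl and 1393 in macrometastasis Tim3-KD. In lesion macrophage-like cells it was 2648 and 980.1 CPM in micrometastasis Ctrl and Tim3-KD and 390.3 and 258 in macrometastasis. The Kupffer-like and lesion macrophage-like ranges overlapped, and both lay above every monocyte-like value (40.9 to 160.3 CPM). After every cell was thinned to 1500 UMIs, 67.6% to 88.7% of Kupffer-like cells had a Ccl24 UMI in the 5 libraries with at least 50 such cells, against 0% to 0.62% of B-like cells.

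Cxcl16 was spread over more cell types than Ccl24. Its level was 190.2 to 271 CPM in Kupffer-like cells (5 libraries), 192 to 389 in lesion macrophage-like cells (4 libraries), 165 to 230.1 in endothelial-like cells (3 libraries) and 113 to 153 in conventional dendritic-like cells (4 libraries). The first 3 ranges overlapped one another, the dendritic range lay below them, and monocyte-like cells were lower still at 5.47 to 27.4 CPM. Endothelial-like cells, which a CD45 sort should not keep, were 2.75% of all cells and held 5.79% of the Cxcl16 UMIs.

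Cxcl1 had the same leading classes. It measured 83.3 to 285 CPM in Kupffer-like cells, 129 to 713 in lesion macrophage-like cells and 100.5 to 154 in endothelial-like cells, and these ranges overlapped. Mature neutrophil-like cells were at 9.51 to 37.7 CPM, but through their number they held 16.0% of the Cxcl1 UMIs, beside 41.5% in Kupffer-like and 22.1% in lesion macrophage-like cells.

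Ccl2 was shared by the 3 mononuclear phagocyte classes. Its medians over libraries were 419 CPM in lesion macrophage-like cells (119 to 935), 278 in Kupffer-like cells (74.2 to 283) and 179 in monocyte-like cells (136 to 265), ranges that overlapped. Mature neutrophil-like cells were at 17.8 to 65.1 CPM, below every monocyte-like value. Within a library the monocyte-like level was 2.69 to 7.61 times the mature neutrophil-like level in 5 of 5 libraries.

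Ccl6 was also high in mature neutrophil-like cells and, with Ccl9, in basophil or mast-like cells. Kupffer-like cells had 585 CPM in AT Tim3-KD, 1627 in micrometastasis Ctrl, 1782 in micrometastasis Tim3-KD, 583 in macrometastasis Ctrl and 1232 in macrometastasis Tim3-KD. Mature neutrophil-like cells had 437 CPM in AT Ctrl, 749.96 and 549 in micrometastasis and 613 and 584 in macrometastasis, a range inside that of monocyte-like cells (386 to 865). Basophil or mast-like cells, marked by Mcpt8 and Gata2, were 0.622% of all cells and held 6.55% of the Ccl6 UMIs. Their level was 4119.6 CPM in the 52 cells of micrometastasis Tim3-KD, the only library with at least 50 such cells.

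Ccl9 was high in monocyte-like, lesion macrophage-like and basophil or mast-like cells. The last held 6.85% of the Ccl9 UMIs, at 1277 CPM in the 52 cells of micrometastasis Tim3-KD. Monocyte-like cells had 272 CPM in AT Ctrl, 536 and 377 in micrometastasis Ctrl and Tim3-KD, and 546 and 425 in macrometastasis. Progenitor-like cells, marked by Cd34 and Sox4, had 112 to 183 CPM over 5 libraries, below all of these. Lesion macrophage-like cells had 853 CPM in micrometastasis Ctrl, 1316 in micrometastasis Tim3-KD, 330.4 in macrometastasis Ctrl and 273 in macrometastasis Tim3-KD, and overlapped the monocyte-like cells. Kupffer-like cells had from 9.76 CPM (AT Tim3-KD) up to 335 (micrometastasis Tim3-KD), the widest range, as highest over lowest value, of any of the 7 genes in that class. Mature neutrophil-like cells were at 4.60 to 10.7 CPM, and the B-like range (0 to 13.6) covered all of it.

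Pf4 was low in most cells. It measured 68.7 to 133 CPM in Kupffer-like cells and 40.8, 416, 432 and 276 CPM in lesion macrophage-like cells of micrometastasis Ctrl, micrometastasis Tim3-KD, macrometastasis Ctrl and macrometastasis Tim3-KD. An unnamed cluster of 84 cells, led by Scd1, Alb and Fgb with 11 of the 12 Kupffer markers also raised over other cells, held 16.4% of the Pf4 UMIs at 1291.5 and 881 CPM in macrometastasis Ctrl and Tim3-KD. Few cells carried the gene: in AT Ctrl 5 cells held 84.6% of its 162 UMIs. Of 11 platelet and megakaryocyte marker genes only Clec1b, Gng11 and Itgb3 were in the matrices. Clec1b is also a Kupffer cell gene, and in the lesion macrophage-like cells the 3 summed to 11.4 to 33.3 CPM, so the part of platelet RNA in Pf4 was not tested.

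Ccl6 and Ccl9, neighbours in the genome, differed in the precursors of the neutrophil lineage. Cluster 13, the precursors led by Ctsg, Mpo, Elane and Prtn3, had Ccl6 at 5.98 to 8.36 CPM and Ccl9 at 41.2 to 66.8 CPM (3 libraries). The cycling precursors of cluster 7 had Ccl6 at 15.7 to 33.4 CPM and Ccl9 at 0.50 to 2.43 (5 libraries), and in cluster 20, led by Ltf, Ly6g and Cd177, Ccl6 was at 11.3 to 69.5 CPM. Among mature clusters Ccl6 was at 115 to 380 CPM in cluster 4, led by Ly6g and Stfa3, and at 733 to 1198 in cluster 6, 602 to 916 in cluster 0 and 593 to 598 in cluster 1. Ccl9 was at 0.47 to 4.20 CPM in cluster 20, 1.46 to 6.10 in cluster 4, 6.09 to 20.1 in cluster 6, 7.79 to 23.3 in cluster 0 and 8.23 to 9.15 in cluster 1. Ccl9 thus had its highest levels in cluster 13, where Ccl6 had its lowest, and both genes were higher in clusters 6 and 0 than in cluster 7. For Ccl9 the levels in clusters 6 and 0 lay partly inside the B-like range (0 to 13.6 CPM). That step of Ccl9 is therefore not read as a difference of expression. Mature neutrophil-like cells exceeded precursors for Ccl6 in 5 of 5 libraries, by 21.1 to 34.2 times, and for Ccl9 in 0 of 5. These clusters were made from the same cells, so the order is a description, and cluster 1 came almost wholly from the macrometastasis libraries.

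**Figure D2:**
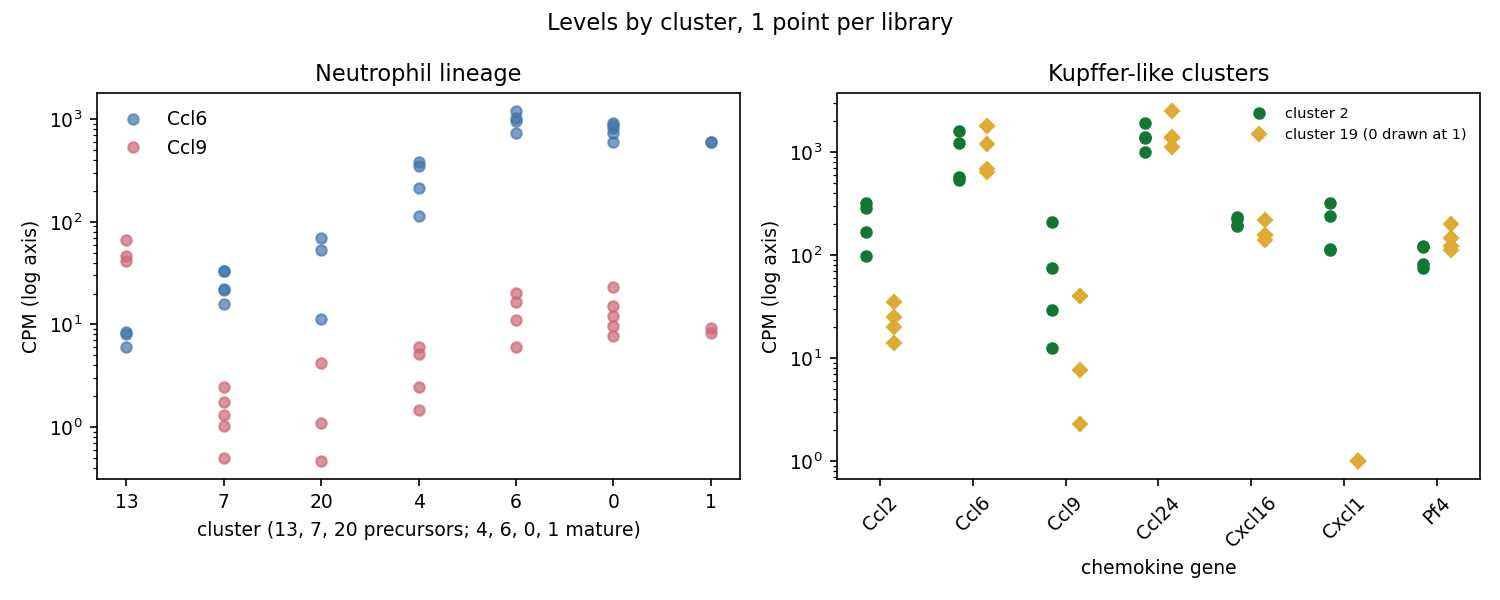
Left, CPM (log axis) of Ccl6 and Ccl9 in the neutrophil lineage clusters, 1 point per library with at least 50 cells of the cluster. Right, CPM (log axis) of the 7 genes in Kupffer-like clusters 2 and 19, 1 point per library, with a value of 0 drawn at 1. Ccl6 goes from below 10 CPM in cluster 13 to over 500 in clusters 6, 0 and 1, and Cxcl1 lies at 0 in cluster 19 in all 4 libraries.

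Kupffer-like cells lay in 2 clusters that shared Ccl24 and Ccl6 but not Cxcl1 and Ccl2. Cluster 2 (2029 cells, median 10939 UMIs) and cluster 19 (376 cells, median 4367 UMIs) both expressed the Kupffer genes Clec4f and Vsig4: Clec4f measured 5521 to 7420 CPM in cluster 2 and 5779 to 6926 in cluster 19 over the 4 libraries with at least 50 cells of both. In the order AT Tim3-KD, micrometastasis Ctrl, macrometastasis Ctrl and macrometastasis Tim3-KD, Cxcl1 was at 116, 325, 241 and 113 CPM in cluster 2 and had 0 UMIs in cluster 19 in each. Against a floor of 3 UMIs per library this was at least 16.6-, 32.4-, 20.7- and 31.0-fold lower. At the rate of cluster 2, cluster 19 would have held 349 Cxcl1 UMIs over all libraries.

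Ccl2 followed Cxcl1. Its level in cluster 19 was 0.142 (0.0511 to 0.320), 0.0628 (0.0230 to 0.137), 0.122 (0.0555 to 0.231) and 0.15 (0.0925 to 0.230) times that in cluster 2 in the same 4 libraries. Ccl24 was at 1.12, 1.30, 1.01 and 1.00 times, and Ccl6 at 1.27, 1.12, 1.11 and 0.974 times, all less than 1.5-fold from the level in cluster 2, and Pf4 was at 1.24 (0.907 to 1.69) to 1.62 (1.20 to 2.15) times. Cxcl16 was at 0.665 to 0.981 times. Ccl9 was at 0.183, 0.192, 0.265 and 0.535 times, from 15 UMIs in all in AT Tim3-KD. Of the genes with at least 100 UMIs among the 7, 2 of 6, 3 of 7, 3 of 7 and 2 of 7 were at least 2-fold lower in cluster 19. Of all genes with at least 100 UMIs, 25.5%, 34.5%, 39.1% and 34% were at least 2-fold lower in cluster 19, 0.896%, 0.403%, 1.23% and 0.861% were higher, and 26.4%, 34.9%, 40.3% and 34.9% were either. Of the NF-kB response genes with at least 100 UMIs, 8 of 8, 10 of 10, 10 of 11 and 8 of 11 were, among them the cytokine gene Il1a, at 154, 133, 158 and 129 CPM in cluster 2 and 25.5, 10.0, 46.5 and 32.7 in cluster 19. Cluster 19 also had fewer UMIs per cell, and the part of depth or cell handling in this split was not tested. Its cells were 55 of the 105 Kupffer-like cells in AT Tim3-KD, 61 of 274 in micrometastasis Ctrl, 4 of 256 in micrometastasis Tim3-KD, 66 of 804 in macrometastasis Ctrl and 181 of 935 in macrometastasis Tim3-KD.

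The next question was how the 7 chemokines differed between Tim3-KD and Ctrl in the whole CD45+ libraries. In a whole library, fewer cells of a type and less RNA per cell cannot be told apart. Ccl24 showed the largest differences, in opposite directions at the 2 day 3 sites: it was 26.5 CPM in AT Ctrl and 234 in AT Tim3-KD, 327 in micrometastasis Ctrl and 76.8 in micrometastasis Tim3-KD, and 285 in macrometastasis Ctrl and 251 in macrometastasis Tim3-KD. The Tim3-KD over Ctrl ratios were 8.83 (8.11 to 9.61), 0.235 (0.228 to 0.242) and 0.879 (0.858 to 0.900).

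In AT, 3 of the 7 genes were at least 2-fold higher in Tim3-KD (Ccl24, Cxcl16 and Pf4) and 1 was lower (Ccl9), where 33.9% of all genes were higher, 9.26% lower and 43.1% either. Cxcl16 went from 8.49 CPM in Ctrl to 60.7 in Tim3-KD, with a ratio of 7.15 (6.11 to 8.37). Pf4 went from 5.29 to 29.9 CPM, but 3 AT Ctrl cells at the ceiling of the deposited scores held 71.0% of its Ctrl UMIs and 1 AT Tim3-KD cell at the ceiling 1.42% of its own. Both levels are lower bounds, so the ratio of 5.65 is bounded on neither side. Ccl9 went from 93.0 to 41.9 CPM. Ccl6 was 233 and 238 CPM, Ccl2 48.3 and 61.4, and Cxcl1 12.6 and 20.7. The median gene was 0.59 higher on the log2 scale, and relative to the trimmed mean of all genes Ccl24 was 2.55, Cxcl16 2.24 and Pf4 1.90 higher, Cxcl1 0.13 higher, and Ccl2, Ccl6 and Ccl9 at -0.25, -0.57 and -1.75. Ccl2 was higher per UMI and lower on that scale, and 5 cells held 61.6% of the Ccl2 UMIs and 64.6% of the Cxcl1 UMIs of AT Tim3-KD. Without cells of a doublet score over 0.15, the Ccl2 ratio was below 1, at -0.18 on the log2 scale, and Ccl9, at -0.98, was no longer 2-fold lower.

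In micrometastasis, Ccl24 and Cxcl16 were at least 2-fold lower in Tim3-KD and none of the 7 was higher, where 18.1% of all genes were lower and 0.749% higher (18.9% either). Cxcl16 was 31.9 CPM in Ctrl and 14.2 in Tim3-KD, with a ratio of 0.446 (0.413 to 0.480). Ccl2 was 110.5 and 59.4 CPM, Ccl6 561 and 354, Ccl9 193 and 118, and Cxcl1 36.9 and 22.4, all lower by less than 2-fold. By the mean deposited score, Ccl2 and Ccl6 were higher in Tim3-KD, by 0.047 and 0.066, and the thinned share of cells with a Ccl2 UMI was 7.89% in Ctrl and 8.21% in Tim3-KD. The median gene was 0.43 lower on the log2 scale, and relative to the trimmed mean Ccl24 stood at -1.65, Cxcl16 at -0.73, Ccl2 at -0.45 and Ccl6, Ccl9 and Cxcl1 between -0.28 and -0.22. Pf4 was 10.2 CPM in Ctrl and 12.7 in Tim3-KD, but 20 Tim3-KD cells at the ceiling of the deposited scores held 52.9% of its UMIs and 1 Ctrl cell 1.41%, so both levels are lower bounds. Leaving these cells out, which removes the highest cells, mostly of Tim3-KD, turned the log2 ratio to -0.74.

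In macrometastasis, 0 of the 7 genes differed by 2-fold, where 10.6% of all genes were lower and 2.27% higher (12.9% either). Cxcl1, 72.8 CPM in Ctrl and 44.0 in Tim3-KD, and Pf4, 48.4 and 30.2, were the lowest in ratio, at 0.604 (0.574 to 0.636) and 0.624 (0.586 to 0.664). For Pf4, 1 cell at the ceiling in each library held 1.62% (Ctrl) and 3.52% (Tim3-KD) of the UMIs, so both levels are lower bounds. Ccl9, 83.0 and 116 CPM, was the highest at 1.40 (1.34 to 1.46). Ccl6 was 407 and 467 CPM, Ccl2 98.6 and 79.6, and Cxcl16 68.6 and 57.8. The median gene was 0.26 lower, and Ccl24 and Cxcl16 changed sign to 0.08 and 0.02 relative to the trimmed mean. These ratios are set side by side in the plot of whole-library levels.

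**Figure D3:**
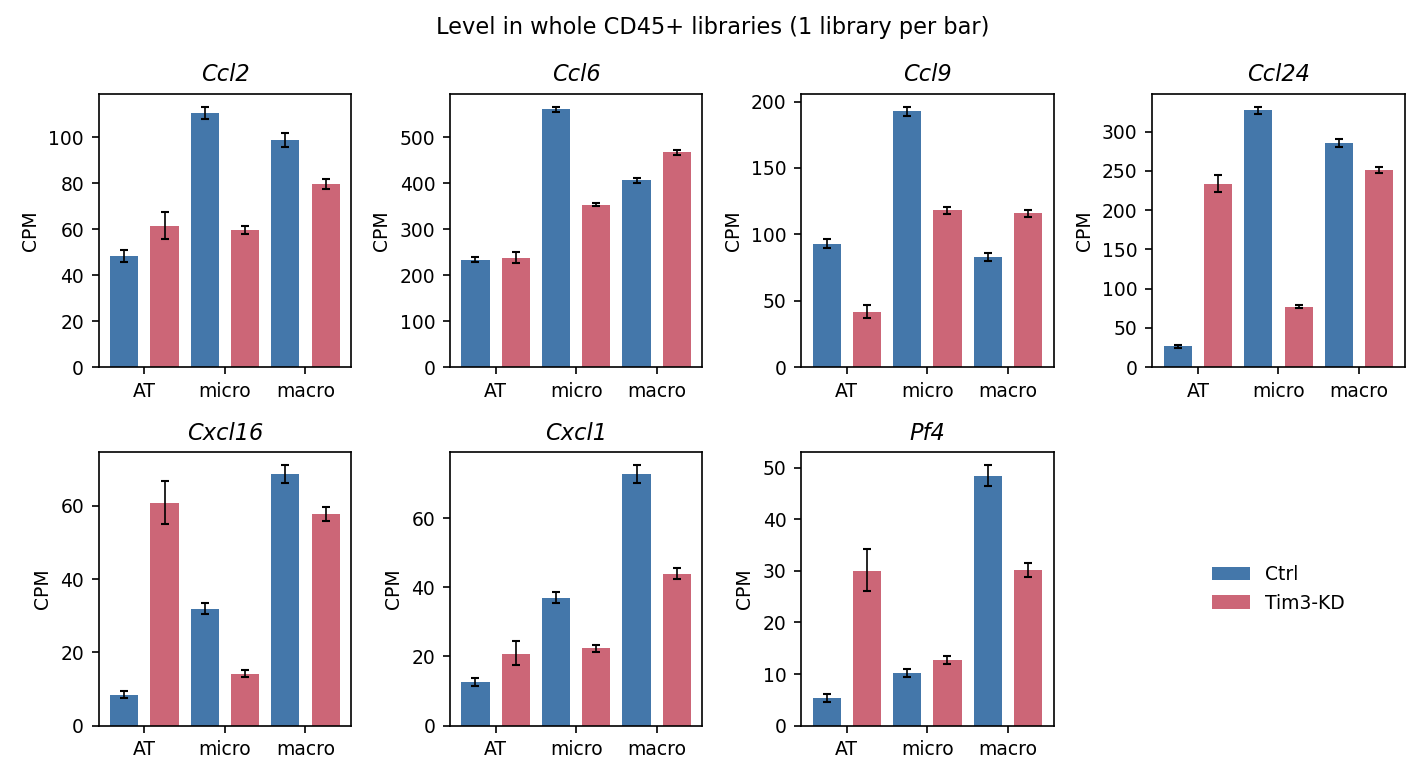
CPM of each chemokine gene in each whole CD45+ library, with exact 95% Poisson intervals (counting error only), for AT, micrometastasis (micro) and macrometastasis (macro). Ccl24, Cxcl16 and Pf4 are higher in Tim3-KD than Ctrl in AT, 6 of the 7 genes are lower in Tim3-KD in micrometastasis, and the differences in macrometastasis are below 2-fold for each gene.

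The makeup of the libraries moved with these ratios. Kupffer-like cells were 1.72% of AT Ctrl and 19.4% of AT Tim3-KD, 5.37% and 4.98% of micrometastasis Ctrl and Tim3-KD, and 16.4% and 17.0% of macrometastasis. Lesion macrophage-like cells were 7.85% of micrometastasis Ctrl and 2.53% of micrometastasis Tim3-KD, and under 3% in each other library. Other classes moved in micrometastasis too: B-like cells were 12.7% of Ctrl and 1.38% of Tim3-KD. Of the neutrophil precursor-like clusters, cluster 7 held 209 Ctrl and 575 Tim3-KD cells, cluster 13 held 74 and 343, and cluster 20 held 94 and 119. Over all libraries these precursors held 26.3% of all UMIs but 0.160% (Ccl24) to 3.98% (Ccl9) of the UMIs of each of the 7 genes. To measure the share of makeup, each cluster was held at its level in the Ctrl library of the site. Only the mix of clusters, weighted by their UMIs, was allowed to differ. In AT the Ctrl levels of Kupffer-like cells rested on 31 cells.

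In AT this mix alone gave a ratio of 10.2 for Ccl24 (observed 8.83), 7.29 for Cxcl16 (observed 7.15) and 0.527 for Ccl9 (observed 0.450). In micrometastasis it gave 0.333 for Ccl24 (observed 0.235), 0.367 for Cxcl16 (observed 0.446), 0.469 for Ccl2 (observed 0.538) and 0.629 for Ccl6 (observed 0.631). Mix and observation differed by less than 1.5-fold in each of these, but in AT the mix gave 1.97 for Ccl2 (observed 1.27) and 2.36 for Cxcl1 (observed 1.65). They were furthest apart for Pf4, at 2.16 against 5.65 in AT and 0.483 against 1.25 in micrometastasis, where cells at the ceiling entered both observed ratios. In macrometastasis, Cxcl1 was lower than its mix gave (0.604 against 0.823) and Ccl6 higher (1.15 against 0.941). With classes in place of clusters, the mix in micrometastasis was above the observed ratio for Ccl24 (0.382), Ccl6 (0.793), Ccl2 (0.657), Ccl9 (0.693) and Cxcl1 (0.654). It was below the observed ratio for Cxcl16 (0.412) and Pf4 (0.515). Clusters and levels come from the same cells, so these are descriptions.

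**Figure D4:**
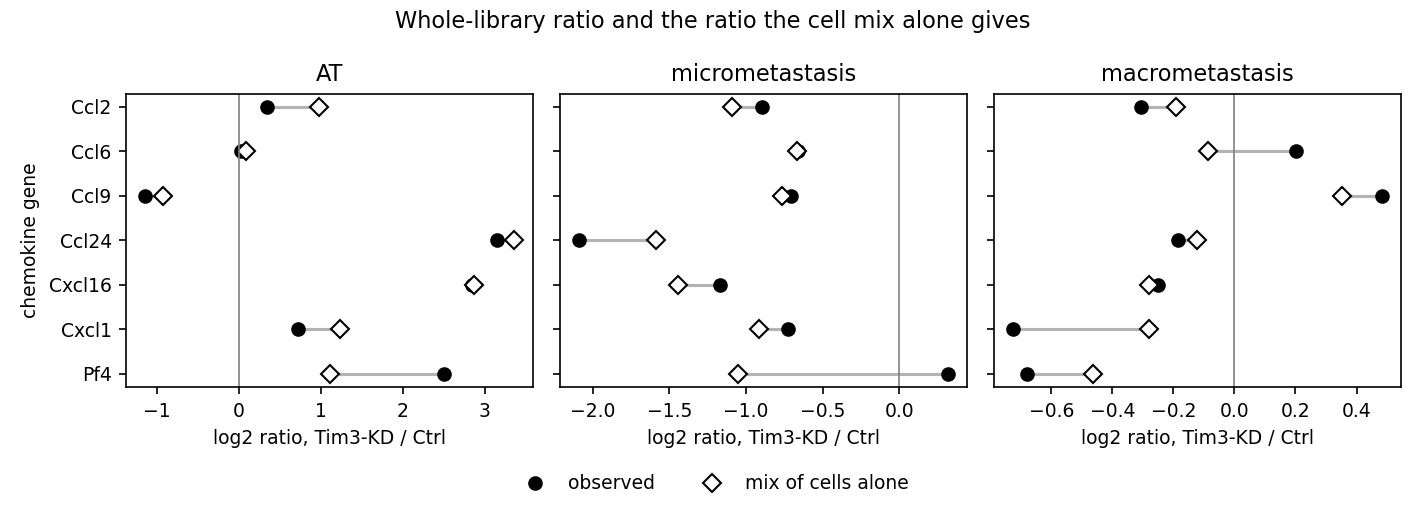
Log2 ratio of Tim3-KD over Ctrl for each chemokine gene at the 3 sites: filled circles are observed whole-library ratios and open diamonds the ratio given by the mix of clusters alone, each cluster held at its level in the Ctrl library. The symbols lie close together for Ccl24 and Cxcl16 in AT and for Ccl6 and Ccl9 in micrometastasis. They lie apart for Pf4 in AT and micrometastasis, Ccl2 and Cxcl1 in AT, Ccl24 in micrometastasis and Cxcl1 and Ccl6 in macrometastasis.

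Within Kupffer-like cells of micrometastasis (274 Ctrl and 256 Tim3-KD cells), 0 of the 7 genes differed by 2-fold, where 2.69% of all genes were higher and 1.11% lower (3.8% either). Ccl24 was 2010.4 CPM in Ctrl and 1859.7 in Tim3-KD, with a ratio of 0.925 (0.888 to 0.964), Ccl6 was at 1.10 (1.05 to 1.14) and Ccl2 at 0.995 (0.893 to 1.11). Cluster 19 was 61 of the Ctrl and 4 of the Tim3-KD cells, and within cluster 2 Ccl2 was at 0.888 (0.796 to 0.989) and Cxcl1 at 0.720 (0.642 to 0.807). Ccl9 was the highest at 1.78 (1.58 to 2.00) and Pf4 the lowest at 0.516 (0.424 to 0.626). For Pf4, 1 Ctrl cell at the ceiling held 2.43% of the UMIs, so its ratio is an upper bound. The whole-library difference in Ccl24 was therefore not seen per UMI in this class. The mature neutrophil markers in these cells summed to 117 CPM in Ctrl and 476 in Tim3-KD, and their part in these ratios was not tested. The median gene was 0.14 higher, and relative to the trimmed mean Ccl6 changed sign to -0.01 and Pf4 passed 2-fold at -1.10.

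Within Kupffer-like cells of macrometastasis (804 Ctrl and 935 Tim3-KD cells), Ccl6 and Ccl9 were at least 2-fold higher in Tim3-KD and Cxcl1 lower, where 1.49% of all genes were higher and 4.47% lower (5.96% either). Ccl6 was 583 CPM in Ctrl and 1232 in Tim3-KD, with a ratio of 2.11 (2.04 to 2.19). Ccl9 was 28.5 and 71.9 CPM, a ratio of 2.52 (2.17 to 2.95), and Cxcl1 233 and 104 CPM, a ratio of 0.445 (0.413 to 0.480). Ccl2 was also lower, 278 and 158 CPM, at 0.569 (0.533 to 0.607), while Ccl24 was 1411 and 1393 CPM, at 0.988 (0.963 to 1.01). Cluster 19, which lacks Cxcl1, was 66 of the 804 Ctrl and 181 of the 935 Tim3-KD cells, and within cluster 2 alone Cxcl1 was 241 and 113 CPM and Ccl6 581 and 1234. When the unnamed cluster of 84 cells was counted in, an alternative chosen after seeing the data, Ccl9 turned to -0.11 on the log2 scale and 0 genes were 2-fold higher, so both calls rest on leaving out those cells.

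Within lesion macrophage-like cells of micrometastasis (401 Ctrl and 130 Tim3-KD cells), 3 genes were at least 2-fold higher in Tim3-KD, Ccl6, Cxcl1 and Pf4, and Ccl24 was lower, where 14.2% of all genes were higher and 7.34% lower (21.5% either). Ccl24 was 2648 CPM in Ctrl and 980.1 in Tim3-KD, with a ratio of 0.370 (0.348 to 0.394), but 5 Tim3-KD cells held 50.8% of its UMIs and the thinned shares of cells with one, 53.6% (48.6% to 58.6%) in Ctrl and 43.8% (35.2% to 52.8%) in Tim3-KD, overlapped. Ccl6 was 1403.5 and 4523 CPM, a ratio of 3.22 (3.10 to 3.35), and Cxcl1 129 and 713 CPM, a ratio of 5.54 (4.97 to 6.18). A Cxcl1 UMI was found in 65 of the 130 Tim3-KD cells and in 98 of the 401 Ctrl cells, and 5 cells held 34.9% of the Cxcl1 UMIs. Pf4 was 40.8 and 416 CPM, and 15 Tim3-KD cells at the ceiling held 66.3% of its UMIs, which makes its Tim3-KD level a lower bound. Markers of other types differed in the same cells: the 12 Kupffer markers summed to 428 CPM in Ctrl and 1765 in Tim3-KD, the hepatocyte markers present (4 of 10) to 409 and 1099.6, the mature neutrophil markers present (9 of 12) to 428 and 841, the lesion macrophage markers themselves (8 of 10) to 2075 and 3185, and the monocyte markers present (9 of 12) to 5509 and 4118, and their part in these ratios was not tested. The class was found at resolution 1 only. At resolution 0.5 a cluster led by Alb, with Trem2 among its leading genes, held 5 Ctrl and 67 Tim3-KD cells of micrometastasis.

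In lesion macrophage-like cells of macrometastasis (103 Ctrl and 148 Tim3-KD cells), only Ccl2 passed 2-fold, with 119 CPM in Ctrl against 325 in Tim3-KD and a ratio of 2.73 (2.31 to 3.23), where 10.8% of all genes were higher and 3.16% lower (14% either). Of the Ccl2 UMIs, 5 cells held 56.4% in Ctrl and 5 cells 44.9% in Tim3-KD, and after thinning 14.6% (8.39% to 22.9%) and 23.6% (17.1% to 31.3%) of cells had one, intervals that overlap. In the same cells the monocyte markers summed to 2091 CPM in Ctrl and 3389.5 in Tim3-KD, the Kupffer markers to 557 and 875, and the hepatocyte markers, at 1314 and 1224.5, exceeded the lesion macrophage markers, at 1069 and 1077, and their part was not tested. Ccl6 was at 0.815 (0.754 to 0.881), Ccl24 at 0.662 (0.587 to 0.746) and Pf4 at 0.639 (0.569 to 0.716). For Pf4, 1 Tim3-KD cell at the ceiling held 12.1% of the UMIs, so its ratio is a lower bound. Ccl6 and, as recovered, Pf4 thus lay on opposite sides of 1 in the 2 kinds of lesion, a difference that was not tested.

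In monocyte-like cells of micrometastasis (723 Ctrl and 812 Tim3-KD cells), Ccl6, Ccl24, Cxcl16 and Cxcl1 were at least 2-fold lower in Tim3-KD, where 12.1% of all genes were lower and 4.12% higher (16.2% either). Ccl6 was 781 CPM in Ctrl and 386 in Tim3-KD, with a ratio of 0.494 (0.477 to 0.513), and Ccl2 265 and 136, a ratio of 0.513 (0.483 to 0.546). The class was made of different clusters in the 2 libraries: cluster 5 held 633 Ctrl and 457 Tim3-KD cells, and cluster 11, cells of median 28093 UMIs led by F13a1, Ly6c2 and Pclaf, held 85 and 348. Within cluster 5 the ratio was 1.03 (0.992 to 1.07) for Ccl6, 0.981 (0.915 to 1.05) for Ccl2 and 0.970 (0.805 to 1.17) for Cxcl1. Within cluster 11 these 3 genes were lower in Tim3-KD, at 0.560 (0.505 to 0.622) for Ccl6, 0.670 (0.571 to 0.790) for Ccl2 and, from 16 and 6 UMIs, 0.0989 (0.0317 to 0.266) for Cxcl1. Ccl24 and Cxcl16 remained lower within cluster 5, at 0.624 (0.562 to 0.691) and 0.619 (0.445 to 0.848), both by less than 2-fold. In the class as a whole the Kupffer markers summed to 149 CPM in Ctrl and 73.3 in Tim3-KD and the hepatocyte markers to 253 and 119.8, and their part was not tested. With coarser clusters (resolution 0.5) the class changed its cells and Ccl2, Ccl6, Ccl9 and Cxcl1 were higher in Tim3-KD.

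In monocyte-like cells of macrometastasis (271 Ctrl and 420 Tim3-KD cells), Ccl24 and Cxcl16 were lower and Pf4 higher by at least 2-fold, where 16.3% of all genes were lower and 9.51% higher (25.8% either). Ccl24 was 113 CPM in Ctrl and 45.4 in Tim3-KD, with a ratio of 0.402 (0.345 to 0.469), and Cxcl16 27.4 and 8.71, a ratio of 0.318 (0.227 to 0.445). Here too the clusters differed: cluster 11 was 6 of the Ctrl and 118 of the Tim3-KD cells, cluster 26 was 49 and 5, and within clusters 5 and 24 Ccl24 was at 0.589 and 1.02 times and Cxcl16 at 0.595 and 0.647 times, none of them past 2-fold. At resolution 0.5 none of the 7 genes was 2-fold lower and Cxcl16 was higher, at 0.58 on the log2 scale. The mature neutrophil markers in these cells summed to 1016 CPM in Ctrl and 474 in Tim3-KD, the hepatocyte markers to 359.7 and 205 and the Kupffer markers to 197 and 137, and their part was not tested. Pf4 had 5 UMIs in Ctrl against 136 in Tim3-KD, of which 5 cells held 94.1%. In mature neutrophil-like cells, Ccl24 and Cxcl1 were at least 2-fold lower in micrometastasis Tim3-KD (4.84% of all genes were lower and 1.5% higher, 6.34% either), at 9.56 and 1.89 CPM and at 23.8 and 9.51 CPM, where cluster 0 was the largest in Ctrl and cluster 4 in Tim3-KD. In the class as a whole, after thinning 0.915% (0.513% to 1.5%) of the micrometastasis Ctrl cells had a Ccl24 UMI. The share was 0.616% (0.168% to 1.57%) in B-like cells, at median depths of 6154 and 3484 UMIs. The Ccl24 level in Ctrl was above the highest B-like level of a library, 4.47 CPM. In cluster 0 Ccl24 was 27.6 CPM (22.1 to 34.2) in Ctrl and 2.64 (0.969 to 5.75) in Tim3-KD. Because the shares overlap, the Ccl24 fold is not read as a difference of expression. In macrometastasis 0 of the 6 measurable genes differed by 2-fold in these cells (1.8% of all genes were lower and 3.47% higher, 5.27% either), and Ccl6 was 613 and 584 CPM. In neutrophil precursor-like cells the 3 measurable genes differed by less than 2-fold in micrometastasis (2.33% of all genes were lower and 0.86% higher, 3.19% either), and in macrometastasis Ccl9 was 9.86 CPM in Ctrl and 39.1 in Tim3-KD (7.64% of all genes were higher and 4.88% lower, 12.5% either), with cluster 13 holding 29 of the 107 Ctrl and 106 of the 237 Tim3-KD cells.

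**Figure D5:**
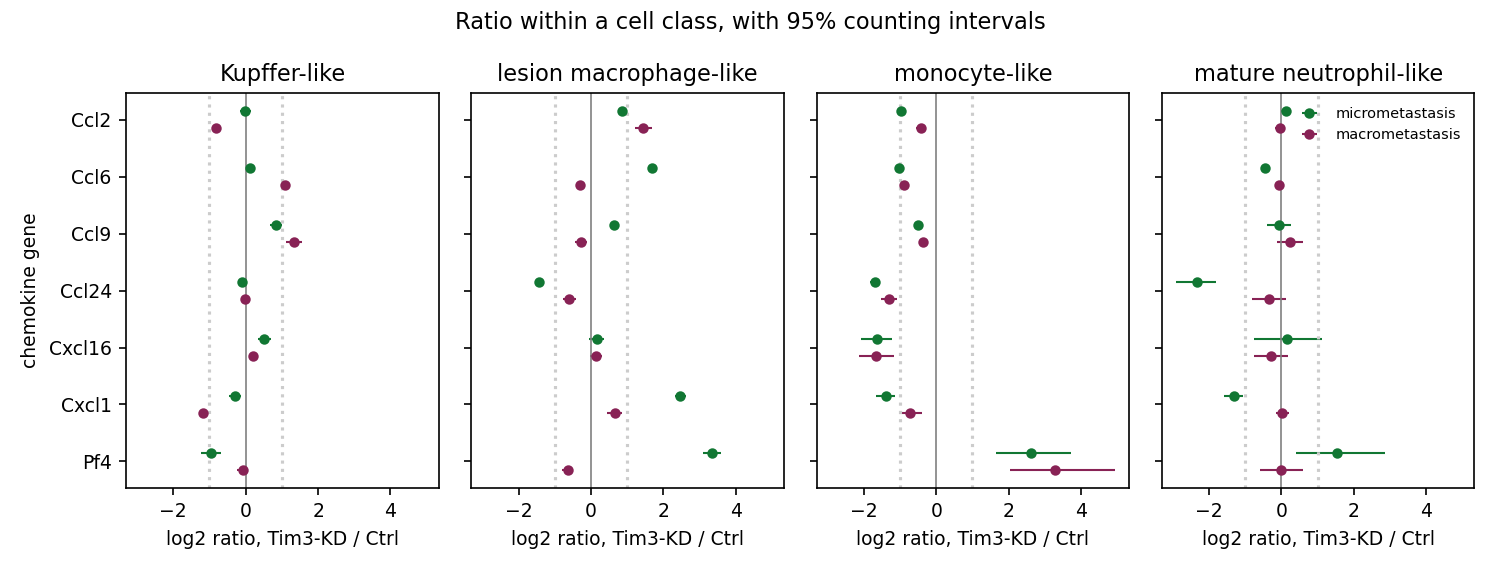
Log2 ratio of Tim3-KD over Ctrl for each chemokine gene within 4 cell classes, micrometastasis (green) and macrometastasis (purple), with exact 95% counting intervals and dotted lines at 2-fold. In Kupffer-like cells Ccl24 lies at -0.11 in micrometastasis and -0.02 in macrometastasis, and Ccl6, Ccl9 and Cxcl1 pass 2-fold in macrometastasis, and in lesion macrophage-like cells Ccl6, Cxcl1 and Pf4 are to the right of 2-fold in micrometastasis.

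Between the Ctrl libraries of different sites, which compares tissue and matrix and, for macrometastasis, also day, 6 of the 7 genes were at least 2-fold higher in micrometastasis than in AT, where 12.7% of all genes were higher and 0.219% lower (12.9% either). The ratio was 12.4 (11.5 to 13.3) for Ccl24, 3.76 (3.30 to 4.30) for Cxcl16, 2.94 (2.63 to 3.28) for Cxcl1, 2.40 (2.34 to 2.47) for Ccl6, 2.29 (2.16 to 2.42) for Ccl2 and 2.07 (1.99 to 2.16) for Ccl9, with Pf4 at 1.92 (1.61 to 2.30). Cells at the ceiling of the deposited scores held 71.0% of the Pf4 UMIs in AT Ctrl (3 cells) and 1.41% in micrometastasis Ctrl (1 cell). The Pf4 ratio is therefore bounded on neither side. The median gene was 0.29 higher on the log2 scale, and relative to the trimmed mean 3 genes passed 2-fold. The share of macrophages moved with this comparison: Kupffer-like and lesion macrophage-like cells were 1.72% and 0.388% of AT Ctrl and 5.37% and 7.85% of micrometastasis Ctrl.

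From micrometastasis to macrometastasis in Ctrl, Pf4 was 4.76 times (4.34 to 5.23) and Cxcl16 2.15 times (2.03 to 2.28) as high and Ccl9 0.431 times (0.415 to 0.447), where 21.9% of all genes were at least 2-fold higher and 3.92% lower (25.8% either). For Pf4, 1 cell at the ceiling in each library held 1.41% and 1.62% of the UMIs, so both levels are lower bounds. Cxcl1 was just inside 2-fold at 1.97 (1.86 to 2.08). Ccl2, Ccl6 and Ccl24 were at 0.892, 0.725 and 0.872. The median gene was 0.54 higher on the log2 scale, so that these 3 and Ccl9 lay below most genes.

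The receptors of these chemokines were also in the matrices. Ccr2, the receptor of Ccl2, was 219 CPM in micrometastasis Ctrl against 96.4 in Tim3-KD, with a ratio of 0.441 (0.428 to 0.454), and 86.7 and 114 in macrometastasis. Ccr1, the receptor of Ccl6 and Ccl9, was 172 and 30.8 CPM in AT Ctrl and Tim3-KD, and Cxcr2, the receptor of Cxcl1 on neutrophils, 144 and 18.5. Ccr3, the receptor of Ccl24, was 3.36 and 68.3 CPM in AT, the same direction as its ligand, and in Kupffer-like cells it was 209.6 and 225 CPM in micrometastasis and 235 and 275 in macrometastasis. Cxcr6, which binds Cxcl16, was 10.6 and 43.7 CPM in AT, 8.97 and 5.69 in micrometastasis and 12.2 and 13.2 in macrometastasis. Of the 14 chemokine receptors in the micrometastasis matrix 8 were at least 2-fold lower in Tim3-KD and 0 higher, where 18.1% of all genes were lower and 0.749% higher. In AT 9 of 14 were higher and 4 lower, where 33.9% of all genes were higher and 9.26% lower.

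Of all chemokine ligands measured, the 7 included, 7 of 18 were at least 2-fold lower and 2 higher in micrometastasis Tim3-KD, where 18.1% of all genes were lower and 0.749% higher, with a median log2 ratio of -0.81 against -0.43 over all genes. The others lower were Ccl4, Ccl5, Cxcl3, Cxcl9 and Xcl1. Cxcl13, which draws B cells, was higher, 11.2 CPM in Ctrl against 48.7 in Tim3-KD, and so was Ccl8, 0.43 against 2.28. In macrometastasis 3 of 19 were lower, Ccl5, Cxcl9 and Cxcl10, and 0 were higher, where 10.6% of all genes were lower and 2.27% higher, with a median of -0.31 against -0.26 over all genes. In AT 2 of 15 were lower and 6 higher, where 9.26% of all genes were lower and 33.9% higher, with a median of 0.75 against 0.59.

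The genes most like each chemokine were found over 54 levels, 1 for each of 13 classes in each library with at least 50 of its cells, as the Pearson correlation of log2(CPM + 10) among 1637 genes. These points share libraries and the correlations are a description. Ccl24 was most like Itgb5 (r = 0.98), an integrin, and was also like the macrophage gene Adgre1 (0.95). Ccl2 was most like Clec4a3 (0.90), Ifi202b and Csf1r, Ccl6 most like Nlrp3 (0.93), Gm5150 and Clec7a, and Ccl9 most like Ms4a6c (0.84), Tubb6 and Ms4a6d. Cxcl16 was most like Cttnbp2nl (0.96), Dab2 and Fcgrt, Cxcl1 most like Tgm2 (0.93), Msr1 and the cytokine gene Il1a, and Pf4 most like the complement genes C1qb (0.86), C1qa and C1qc. Among the 7 themselves the correlation was 0.84 for Ccl2 with Ccl6 and for Cxcl1 with Pf4, and 0.38 for Ccl9 with Cxcl16 and with Pf4.

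The share of cells with a UMI did not always follow the level. After thinning, Ccl6 was found in 25.5% (23.5% to 27.5%) of AT Ctrl cells and 14.9% (12.0% to 18.2%) of AT Tim3-KD cells, although its levels were alike. Ccl2 was found in 4.83% (3.88% to 5.92%) and 2.21% (1.15% to 3.84%) in AT, the opposite direction to its level. Ccl6 was found in 37.1% (35.7% to 38.4%) of micrometastasis Ctrl cells and 35.5% (34.2% to 36.8%) of Tim3-KD cells, and in 32.2% (30.9% to 33.5%) and 36.8% (35.5% to 38.1%) in macrometastasis. Ccl24 was found in 11.7% (10.9% to 12.6%) and 6.77% (6.10% to 7.49%) in micrometastasis and in 15.3% (14.3% to 16.4%) and 15.3% (14.3% to 16.2%) in macrometastasis. Cxcl1 was found in 6.27% (5.61% to 6.98%) and 4.02% (3.51% to 4.57%) in macrometastasis. In B-like cells these genes were found in 0% to 1.16% of cells. Unthinned, Ccl6 was found in 55.9% and 60.5% of micrometastasis Ctrl and Tim3-KD cells, in the opposite order.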

How the data were processed

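The chemokine genes and gene lists were chosen with earlier results of these data known. Per the labels and methods, reads were trimmed (Trim Galore 0.4.3), mapped (STAR 2.7.7a) to GRCm38 and counted as UMIs, and cells over 1000.0 UMIs were kept after doublet removal with scrublet. The authors deposited 1 matrix per site of scaled scores, regressed on cell totals and capped at 10, with both libraries of a site scaled together. The tests had been planned on UMIs, so each score was turned back into UMIs: 100% of the values of the 7 genes were whole within 0.05, and values at the cap are lower bounds. Recovery was tested on simulated data of the AT comparison (4484 genes, 100% of UMIs exact).

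Totals per library ran from 7086531 to 79971745 UMIs over all genes, 10.5% to 20.2% of them in the matrix, and 1 UMI is the smallest step of a value. Cells were clustered (scanpy 1.11.5, leidenalg 0.10.2, resolution 1) on 1613 of the 1642 genes in all 3 matrices, and 27 clusters were named from marker lists by rules settled after a first clustering was seen. Doublet scores over 0.15, computed again, were found in 1.89% to 6.21% of cells of a library and no cell was removed. Classes were compared with at least 50 cells, and genes with at least 100 UMIs, over both libraries, and a fold of 2 was counted. Ratios have exact conditional binomial, sums exact Poisson and shares exact binomial intervals at 95% (scipy 1.17.1). Named were the 7 genes, their receptors, other ligands past 2-fold in whole libraries and the 3 genes most like each, of which 1 is not reported here. Alternatives were another scale, trimmed-mean scaling (30% from each end), cap, cell, doublet, UMI, fold and clustering settings.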

Additional observations from a re-analysis of the deposited data

Results flagged for a closer look

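The ratio of Tim3-KD over Ctrl had opposite directions at 2 sites for each of the 7 chemokines in whole libraries, and the difference was not tested because each group was 1 library. As differences of log2 ratios, the largest were Ccl24 at 5.23 and Cxcl16 at 4.00, both higher in AT and lower in micrometastasis, then Pf4 at 3.18 between AT and macrometastasis, where 3 AT Ctrl cells at the score ceiling held 71.0% of the Pf4 UMIs and 1 cell at the ceiling entered each of the other 3 libraries, so that this difference is bounded on neither side. Ccl9 differed by 1.63 between macrometastasis and AT, Cxcl1 by 1.45 between AT and macrometastasis, Ccl2 by 1.24 between AT and micrometastasis, and Ccl6 by 0.87 between macrometastasis and micrometastasis. For Ccl2 and Cxcl1 the opposite direction rests on AT, where it turned under other settings: Ccl2 was lower in Tim3-KD as the mean over cells (-0.52), without cells of a doublet score over 0.15 (-0.18), relative to the trimmed mean (-0.25) and by the deposited score (-0.11), and Cxcl1 was lower as the mean over cells (-0.45) and by the deposited score (-0.028). For Ccl6 it rests on micrometastasis, where the deposited score gave a difference of 0.066. Beside these, the Kupffer-like share differed between AT Ctrl and Tim3-KD (1.72% and 19.4% of cells), and its part was not tested gene by gene beyond the ratio given by the mix of clusters.

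Within lesion macrophage-like cells, 3 genes were higher in Tim3-KD in micrometastasis and lower in macrometastasis: Pf4 with a difference of 4.00, Ccl6 with 1.98 and Ccl9 with 0.90 on the log2 scale, none of them tested. In Tim3-KD, 15 micrometastasis cells at the ceiling held 66.3% of the Pf4 UMIs and 1 macrometastasis cell 12.1%. The Pf4 difference is therefore bounded on neither side. In neutrophil precursor-like cells Cxcl16 differed by 4.16 and Cxcl1 by 2.46 between the lesions in opposite senses, from sums of at most 42 UMIs a library, and this too was not tested.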

How the results depend on the processing

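No fit with a replicate block was made, since each comparison was of 1 library with 1 library and had no test, and a fit over the 3 sites with site as a term was not made. Of the recomputed counts of chemokine genes past a threshold 287 stayed within 1.5 times the reported count and 52 moved further, and of the recomputed gene ratios 658 stayed within their counting interval, 136 left it in the same direction and 26 changed direction. The cause was not tested beyond what each alternative does by its construction. Counts below are of the 7 genes. At 1.5-fold, 6 were lower in micrometastasis libraries and 2 in macrometastasis libraries, 1 lower and 1 higher in Kupffer-like cells of micrometastasis, 2 lower in those of macrometastasis, 5 higher in lesion macrophage-like cells of micrometastasis, 2 lower and 2 higher in those of macrometastasis, and 4 lower in monocyte-like cells of macrometastasis. At 3-fold, 0 were lower in AT, 1 in micrometastasis, 0 in lesion macrophage-like, 2 in monocyte-like and 1 in mature neutrophil-like cells of micrometastasis, 0 lower and 0 higher in Kupffer-like cells, 0 higher in lesion macrophage-like and 1 lower in monocyte-like cells of macrometastasis, and between Ctrl sites 2 were higher from AT and 0 lower and 1 higher from micrometastasis. With a minimum of 20 UMIs or none, 1 was higher in monocyte-like, mature neutrophil-like and precursor-like cells of micrometastasis, and in precursor-like cells of macrometastasis 1 or 2 were lower and 2 or 3 higher. As the mean over cells, 1 was lower in micrometastasis, 1 higher in its Kupffer-like cells, 2 lower in its monocyte-like cells, 1 lower in those of macrometastasis and 1 higher between lesions, and the log2 ratio turned to -0.52 for Ccl2 and -0.45 for Cxcl1 in AT, to 0.0054 for Ccl24 in macrometastasis, and to 0.019 for Ccl2, 0.060 for Ccl9 and 0.15 for Cxcl1 in monocyte-like cells of macrometastasis. Relative to the trimmed mean, 1 was lower in micrometastasis, in its Kupffer-like cells and in monocyte-like cells of macrometastasis, 3 were higher from AT to micrometastasis and 2 lower and 1 higher from there to macrometastasis, and Ccl2 turned to -0.25 in AT, Ccl6 to -0.011 in Kupffer-like cells of micrometastasis, Ccl24 to 0.083 and Cxcl16 to 0.020 in macrometastasis and Ccl6 to 0.063 in its mature neutrophil-like cells. By the mean deposited score the difference turned to -0.11 for Ccl2 and -0.028 for Cxcl1 in AT and to 0.047 for Ccl2 and 0.066 for Ccl6 in micrometastasis. Without cells at the cap, which by construction removes the highest cells, Pf4 turned to -0.74 in micrometastasis, and without cells of a doublet score over 0.15 Ccl2 turned to -0.18 in AT, where 0 were then lower. At resolution 0.5, 1 was lower and 1 higher in monocyte-like cells of micrometastasis and 0 lower in those of macrometastasis, with Ccl2 at 0.11, Ccl6 at 0.30, Ccl9 at 0.20 and Cxcl1 at 0.68 in the first and Ccl2 at 0.23, Ccl9 at 0.027, Cxcl16 at 0.58 and Cxcl1 at 0.20 in the second. At resolutions 0.5 and 2, 1 gene had its highest level in a macrophage or monocyte class, since 4 others led in a cluster named hepatocyte-like there, and no lesion macrophage-like class was found, so its ratios could not be given. Clustering with chemokine genes left 0 higher in monocyte-like cells of macrometastasis. With the unnamed cluster counted in, chosen after seeing the data, 0 were higher in Kupffer-like cells of macrometastasis and Ccl9 turned to -0.11. Unthinned, 3 genes had a lower share of Tim3-KD cells with a UMI in both lesions, against 5 after thinning. Depth left 6 of the 7 genes over the minimum of 100 UMIs in monocyte-like cells of micrometastasis, and 3 and 2 in precursor-like cells of micrometastasis and macrometastasis.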
